A study of Hipposideros armiger and Mus musculus with 20 samples.

Results

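Usp18, Isg15, Irf7, Parp14 and Mx1 are genes that interferon switches on, and they were followed through the fat depots of cold-exposed mice and bats. They were chosen by name, as the rows of these 5 genes among the 14871 genes of the deposited expression table. Earlier results of these data were known when the genes were chosen. All 5 were found, and their rows carry mouse gene identifiers in both species. Type I interferons, made by cells that sense foreign or misplaced nucleic acid, bind a receptor on the cell surface, and the kinases JAK1 and TYK2 then pass the signal to transcription factors that turn on a large set of antiviral genes. ISG15 is a small ubiquitin-like protein of that set that is attached to other proteins, and USP18 takes it off again and also holds back the receptor. IRF7 is the transcription factor that drives further interferon production, PARP14 adds single ADP-ribose units to proteins, and MX1 is a dynamin-like GTPase that blocks the replication of viruses. Interferon-induced genes are read in white fat both from fat cells and from the leukocytes that live among them.

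RNA sequencing covered 20 libraries in 10 groups of 2, each with 1 female and 1 male. The 8 mouse libraries, from the outbred ICR stock, came from subcutaneous white fat (sWAT) and interscapular brown fat (iBAT) of animals kept at 10 °C or at 30 °C for 7 days. The 12 libraries of the great roundleaf bat, Hipposideros armiger, came from intra-abdominal white fat (aWAT), sWAT and iBAT at the same temperatures and for the same time. The labels call the bats wild type, give no age and do not say which libraries came from separate animals, so p-values measure only the spread between these libraries. Expression is given in FPKM, fragments scaled to transcript length and to sequencing depth, so a level per length. Read totals are not given, and the low values put the depth between 0.950 and 1.11 times that of the first library in mouse and between 0.624 and 1.08 times in bat, with bat iBAT lowest. The summed FPKM of 8 brown fat markers was 8557 (female) and 9444 (male) in mouse iBAT at 10 °C and 3213 and 2859 in mouse iBAT at 30 °C, against 34.6 and 42.5 in mouse sWAT at 30 °C. In bat iBAT it was 12982 and 9896 at 10 °C, and 5669 and 4902 at 30 °C. The 7 fat cell markers summed to between 1500 and 14853 FPKM in the libraries of both species. Changes are log2 ratios of FPKM + 1, given ± the standard error, less the median change of all genes tested, and they understate the change of genes near 1 FPKM. They were fitted with limma, and an adjusted p under 0.05 over all genes tested counts as a call. Below, paired values are the female and then the male library.

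In mouse sWAT, 2 of the 5 genes fell in the cold, Usp18 and Parp14, and no gene of the 5 rose. The share called lower among all 10689 genes tested was 26.8%, with 7.06% called higher. The 2 cold libraries lay below both warm ones for 4 of the 5, all but Isg15, and 54.6% of all genes tested lay that way. The median of all genes was itself −0.37 on the log2 scale.

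Usp18 (ENSMUSG00000030107), the ISG15 protease and receptor brake, had 5.58 and 3.00 FPKM in sWAT of mice at 10 °C, against 19.7 and 8.16 FPKM at 30 °C. The means were 4.29 ± 1.83 and 13.9 ± 8.13 FPKM (SD, n = 2 each), and the log2 change was −1.06 ± 0.43 (adjusted p = 0.0443). Both cold libraries were below both warm ones, and the warm female stood highest. Isg15 (ENSMUSG00000035692), the modifier that Usp18 removes, had 9.14 and 6.73 FPKM at 10 °C, against 21.9 and 4.96 FPKM at 30 °C. Here the warm libraries lay on either side of the cold ones, and the change was −0.03 ± 0.57 (adjusted p = 0.602).

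Irf7 (ENSMUSG00000025498) had 6.91 and 4.04 FPKM in sWAT at 10 °C, against 24.0 and 9.02 FPKM at 30 °C. The groups did not overlap, but the change of −0.96 ± 0.43 missed the threshold (adjusted p = 0.0524). Parp14 (ENSMUSG00000034422) had 6.16 and 3.89 FPKM at 10 °C, against 17.6 and 10.5 FPKM at 30 °C. It was lower in the cold in both sexes (−0.94 ± 0.29, adjusted p = 0.0235). Mx1 (ENSMUSG00000000386) was the least abundant, with 1.46 and 0.391 FPKM at 10 °C, against 4.48 and 1.78 FPKM at 30 °C. Its change was −0.71 ± 0.40 (adjusted p = 0.0740), again without overlap.

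**Figure D1:**
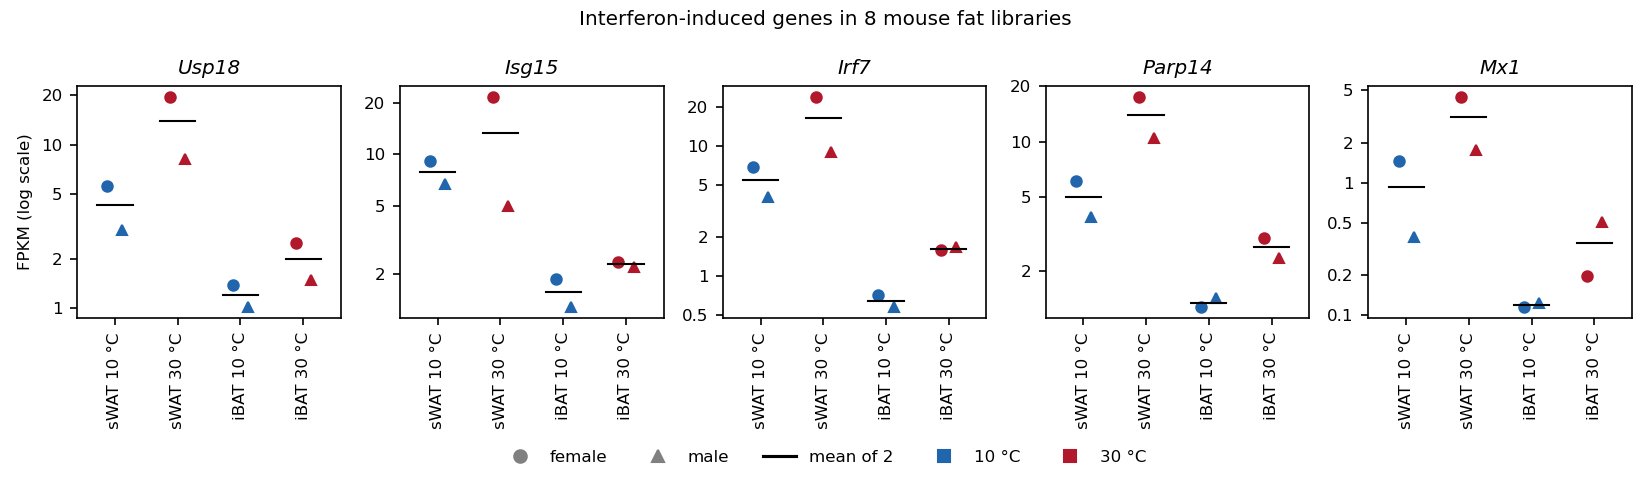
FPKM on log axes of the 5 genes in the 8 mouse libraries, with depot and temperature on the x axis, circles for females, triangles for males and bars for the mean of 2. The warm female sWAT library is the highest for every gene (19.7 FPKM for Usp18 and 24.0 FPKM for Irf7), and the cold iBAT group has the lowest mean.

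The female warm sWAT library held the highest value of every one of the 5 genes. Without it the change of Usp18 was −0.52 (adjusted p = 0.186) and that of Parp14 −0.65 (adjusted p = 0.117), so that neither was called, while Isg15 turned to 0.88 (adjusted p = 0.195). Without the male cold sWAT library the changes were −0.81 (adjusted p = 0.186) and −0.78 (adjusted p = 0.0775), again with no call. Without either cold iBAT library, which is in neither group compared but adds to the shared spread, none of the 5 was called, and without either warm iBAT library Parp14 alone was. Without the male warm sWAT library Usp18, Isg15, Irf7 and Parp14 were called, and without the female cold one all but Isg15. With the libraries scaled by median ratios, Parp14 kept its call (−0.90, adjusted p = 0.0441) and Usp18 lost it (−1.02, adjusted p = 0.0965). Under that scaling 6.55% of all genes were called lower and 11.4% higher. Such shares are not given for the fits that left out 1 library.

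In mouse iBAT none of the 5 genes passed the test, by limma, and none had an unadjusted p under 0.05. The call rate over all genes was 14.1%, with 11.2% called lower and 2.84% higher, and with median-ratio scaling 3.63% and 6.62%. Usp18 had 1.38 and 1.01 FPKM at 10 °C, against 2.51 and 1.49 FPKM at 30 °C (−0.14 ± 0.43). Parp14 had 1.27 and 1.42 FPKM at 10 °C, against 3.01 and 2.35 FPKM at 30 °C (−0.35 ± 0.29). Irf7 had 0.707 and 0.573 FPKM at 10 °C, against 1.57 and 1.66 FPKM at 30 °C (−0.38 ± 0.43). These 3 genes and the other two lay lower in both cold libraries than in both warm ones, and so did 59% of all genes tested. Isg15 had 1.86 and 1.28 FPKM in the cold, against 2.35 and 2.20 FPKM in the warm (−0.06 ± 0.57). Mx1 had 0.115 and 0.123 FPKM, against 0.198 and 0.510 FPKM (0.03 ± 0.40, relative to a median of all genes of −0.30). Adjusted p-values ran from 0.170 for Parp14 to 0.702 for Isg15.

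The test of the difference between the depots' responses, sWAT minus iBAT, called none of the 5 genes in mouse, and none had an unadjusted p under 0.05. It called 0.0936% of all genes. The differences were −0.94 ± 0.61 for Usp18, −0.61 ± 0.41 for Parp14, −0.60 ± 0.60 for Irf7, 0.01 ± 0.80 for Isg15 and −0.77 ± 0.56 for Mx1, with adjusted p-values from 0.382 to 0.987. The calls in sWAT are therefore not shown to differ from the response in iBAT.

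**Figure D2:**
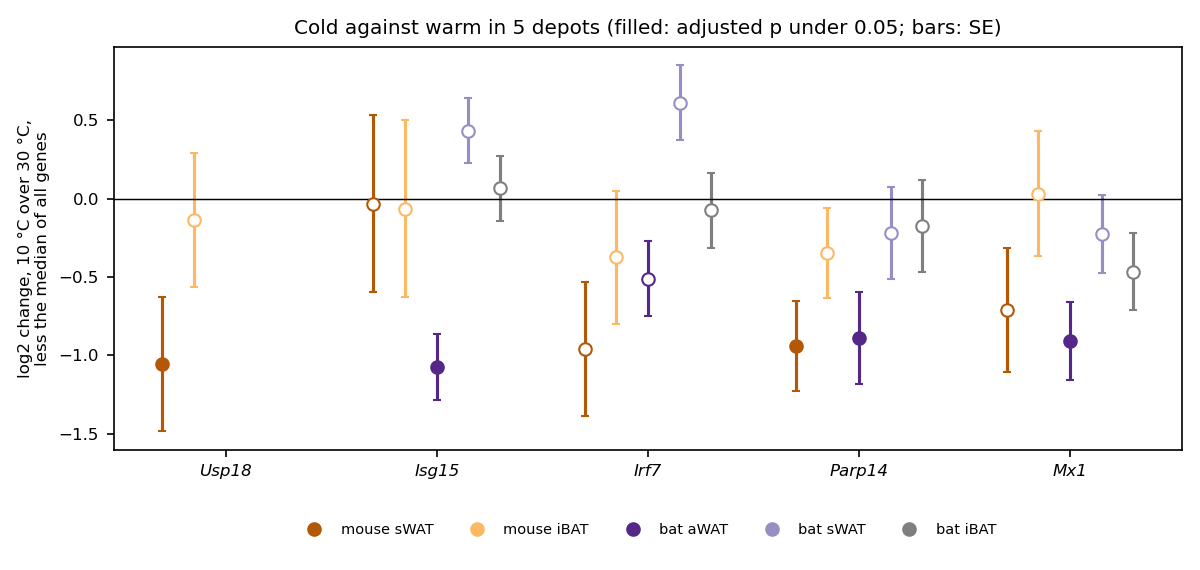
Log2 change at 10 °C over 30 °C of each gene (x axis) in 5 depots, less the median change of all genes tested, with standard errors as bars and filled points for an adjusted p under 0.05. The filled points are Usp18 and Parp14 in mouse sWAT and Isg15, Parp14 and Mx1 in bat aWAT, all between −0.89 and −1.08, and Usp18 has no point in the bat, where it was not tested.

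At 30 °C all 5 genes were higher in mouse sWAT than in iBAT, with changes of 2.03 ± 0.43 for Irf7 (adjusted p = 0.00361), 1.65 ± 0.43 for Usp18 (adjusted p = 0.00587) and 1.43 ± 0.29 for Parp14 (adjusted p = 0.00267). Isg15 followed with 1.26 ± 0.57 (adjusted p = 0.0297) and Mx1 with 0.97 ± 0.40 (adjusted p = 0.0159). Only genes that reached 1 FPKM in 2 or more libraries were tested. Mx1 passed this filter through sWAT libraries alone, with at most 0.510 FPKM in iBAT. With no filter Mx1 had a change of 1.16 ± 0.39 (adjusted p = 0.0218). Of all genes 58.7% were called, 48% higher in sWAT and 10.7% lower, around a median of 0.57, and with median-ratio scaling the shares were 21% and 23.6%. Under that scaling Isg15 was not called (adjusted p = 0.0890). Isg15 and Mx1 lost their calls without either warm iBAT library, and Mx1 also without the female warm sWAT library (0.53, adjusted p = 0.0854).

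At 10 °C, Irf7 (1.48 ± 0.43, adjusted p = 0.0209) and Parp14 (0.87 ± 0.29, adjusted p = 0.0200) were higher in mouse sWAT than in iBAT, beside 29.9% of all genes called, 27.6% higher and 2.32% lower, or 9.41% and 12.9% with median-ratio scaling. Isg15 (1.33 ± 0.57, adjusted p = 0.0532), Usp18 (0.76 ± 0.43, adjusted p = 0.0687) and Mx1 (0.26 ± 0.40, adjusted p = 0.189) were not called. Both calls were lost without either cold iBAT library or the female cold sWAT library, where none of the 5 was called, and 4 of the 5 were called without either warm sWAT library. The order of the group means was the same for every gene, with sWAT at 30 °C highest, then sWAT at 10 °C, iBAT at 30 °C and iBAT at 10 °C. That order was shared by 41.8% of all genes tested. Neighbouring groups overlapped for Isg15 between the sWAT groups and for Mx1 between sWAT at 10 °C and iBAT at 30 °C, and for no other pair.

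General leukocyte and T lymphocyte markers were mostly lower in cold mouse sWAT, with a wide gap between the 2 cold libraries. The 6 general leukocyte markers summed to 511 and 56.5 FPKM at 10 °C, against 1437 and 1306 FPKM at 30 °C. The 7 T lymphocyte markers summed to 146 and 4.63 FPKM at 10 °C, against 448 and 463 FPKM at 30 °C. The 9 B lymphocyte and plasma cell markers summed to 1263 and 32.3 FPKM at 10 °C, against 12182 and 2418 FPKM at 30 °C. All 3 sums were lower in both cold libraries, and no marker of these lists was under 0.1 FPKM in both libraries of a mouse sWAT group. The number called lower was 5 of 6 general leukocyte markers, 5 of 7 T lymphocyte markers and 2 of 9 B lymphocyte and plasma cell markers, with none called higher, beside 26.8% of all genes called lower. The B lymphocyte and plasma cell count was not above that share.

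The 10 macrophage markers summed to 325 and 228 FPKM in mouse sWAT at 10 °C, against 532 and 360 FPKM at 30 °C, with 1 of 10 called lower, below the share of all genes. The 8 dendritic cell markers summed to 44.9 and 12.1 FPKM at 10 °C, against 117 and 109 FPKM at 30 °C. Of these 3 of 8 were called lower, beside 26.8% of all genes. Of the 8 brown fat markers 6 were called higher, beside 7.06% of all genes. Their sums were 2726 and 5447 FPKM at 10 °C, against 34.6 and 42.5 FPKM at 30 °C. In iBAT the general leukocyte markers summed to 7.22 and 8.19 FPKM at 10 °C and to 23.9 and 16.3 FPKM at 30 °C. All were below the lowest sWAT library, the male cold one with 56.5 FPKM. The part of leukocytes in the levels of the 5 genes was not tested, and in whole tissue fewer cells of a type and less RNA per cell cannot be told apart. The 5 skeletal muscle markers summed to 10.9 and 830 FPKM in cold sWAT, against 17.4 and 4.27 FPKM in warm sWAT, so that the male cold library stood apart. In mouse iBAT they summed to 23.2 and 469 FPKM at 10 °C, against 1009 and 853 FPKM at 30 °C, lower in both cold libraries and, at 30 °C, far above sWAT. The part of muscle in the cold and depot comparisons was not tested either.

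**Figure D3:**
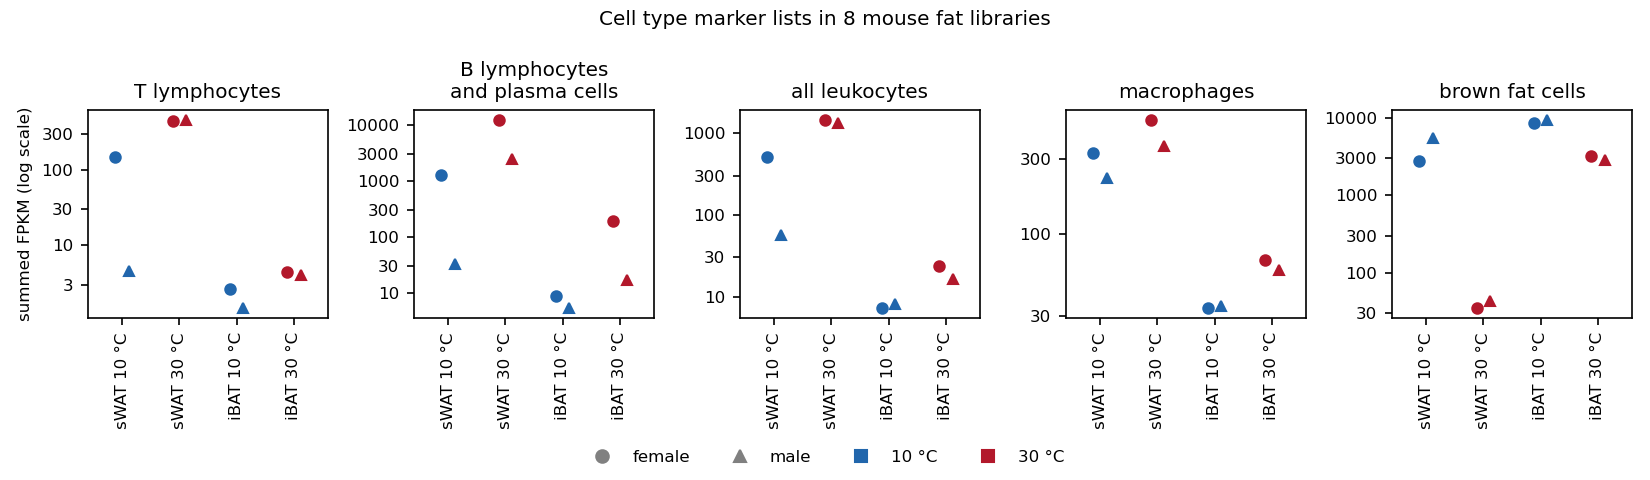
Summed FPKM on log axes of 5 marker lists in the 8 mouse libraries, with depot and temperature on the x axis, circles for females and triangles for males. Both warm sWAT libraries are highest for the leukocyte lists (1437 and 1306 FPKM for general leukocyte markers), the male cold sWAT library has 4.63 FPKM of T lymphocyte markers, and brown fat markers are lowest in warm sWAT.

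In the bat, Usp18 was read at a low level and the other four were tested. Usp18 reached 1 FPKM in 1 of 12 libraries, cold male iBAT, and so did not pass the filter on low values. Bat Mx1 was the most abundant of the 5, from 10.8 to 37.7 FPKM with a median of 26.5. By mean level it stood at percentile 86.4 of the genes with a mean above 0 in the bat. Parp14 ran from 1.22 to 7.77 FPKM, Isg15 from 0.538 to 4.05 FPKM and Irf7 from 0.181 to 1.82 FPKM. The RefSeq annotation of the bat genome (ASM189008v1) lists USP18, PARP14, IRF7 and ISG15 once each, and of the MX family it lists MX2 and no gene named MX1. Which family member the row called Mx1 reads in the bat is therefore uncertain. Levels were not compared between species.

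In bat aWAT 3 of the 4 genes tested fell in the cold, Isg15, Parp14 and Mx1, and Irf7 was not called. Of all 11025 genes tested 6.67% were called lower there and 8.66% higher. With median-ratio scaling the shares were 4.24% and 9.67%, and there Isg15 and Mx1 were called and Parp14 was not. All 4 lay lower in both cold libraries than in both warm ones, as did 35.1% of all genes.

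Isg15 had 0.717 and 0.937 FPKM in bat aWAT at 10 °C, against 2.53 and 4.05 FPKM at 30 °C. The change was −1.08 ± 0.21 (adjusted p = 0.00499), and it stayed called in every alternative tried, with adjusted p-values up to 0.0474. Parp14 had 1.84 and 2.80 FPKM at 10 °C, against 7.77 and 4.12 FPKM at 30 °C, a change of −0.89 ± 0.29 (adjusted p = 0.0419). Its call was lost with a pseudocount of 0.1 (adjusted p = 0.0518) and with no filter on low values (adjusted p = 0.0722). It was also lost with only the groups compared in the fit (adjusted p = 0.104). The warm female was highest, and without her library the change was −0.54 (adjusted p = 0.283). Without the female cold library Parp14 was not called either (adjusted p = 0.252), nor with median-ratio scaling (adjusted p = 0.0502). Leaving out any 1 sWAT library or either warm iBAT library, which are in neither group compared, put its adjusted p between 0.0522 and 0.0602.

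Mx1 had 14.2 and 20.3 FPKM in bat aWAT at 10 °C, against 37.2 and 35.0 FPKM at 30 °C, with a change of −0.91 ± 0.25 (adjusted p = 0.0203). The warm libraries were close to each other and both well above the cold ones. Its call was lost without the female or the male warm library (adjusted p = 0.114 and 0.0556) and without the female cold one (adjusted p = 0.161). Irf7 had 0.568 and 0.181 FPKM at 10 °C, against 1.64 and 0.721 FPKM at 30 °C (−0.51 ± 0.24, adjusted p = 0.0969). It was called without the male warm library (−0.80, adjusted p = 0.0415). Usp18 had 0.561 and 0.346 FPKM at 10 °C, against 0.534 and 0.167 FPKM at 30 °C, and these groups overlapped.

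**Figure D4:**
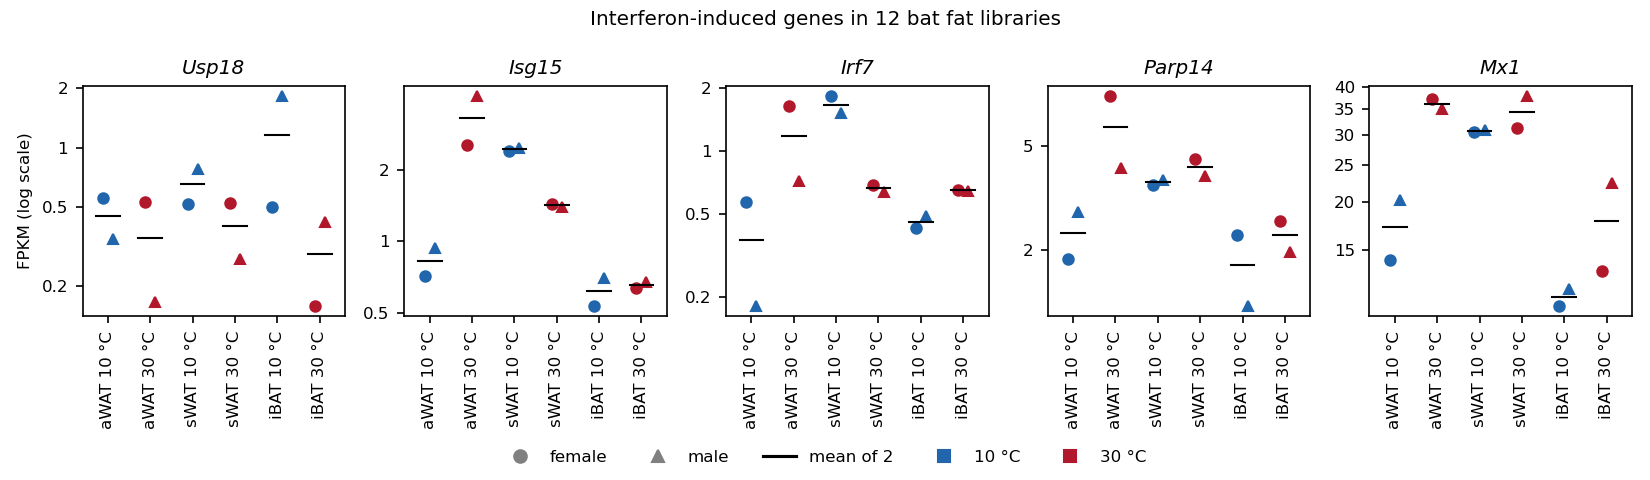
FPKM on log axes of the 5 genes in the 12 bat libraries, with depot and temperature on the x axis, circles for females, triangles for males and bars for the mean of 2. Cold aWAT lies below warm aWAT for Isg15, Irf7, Parp14 and Mx1, while in sWAT the cold libraries are the higher ones for Isg15 (2.38 and 2.48 FPKM against 1.44 and 1.40 FPKM) and Irf7.

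In bat sWAT limma called none of the 4 genes tested, and 2 had an unadjusted p under 0.05, Irf7 and Isg15. Of all genes 1.02% were called. Irf7 had 1.82 and 1.51 FPKM at 10 °C, against 0.685 and 0.637 FPKM at 30 °C (0.61 ± 0.24, adjusted p = 0.338). Isg15 had 2.38 and 2.48 FPKM at 10 °C, against 1.44 and 1.40 FPKM at 30 °C (0.43 ± 0.21, adjusted p = 0.439). Both genes lay higher in both cold libraries, as did 27.5% of all genes. Parp14 had 3.56 and 3.73 FPKM at 10 °C, against 4.49 and 3.84 FPKM at 30 °C (−0.22 ± 0.29, adjusted p = 0.901). Mx1 had 30.5 and 30.9 FPKM at 10 °C, against 31.2 and 37.7 FPKM at 30 °C (−0.23 ± 0.25, adjusted p = 0.881). These lay lower without overlap, as did 14.8% of all genes, by a small margin. Usp18 had 0.523 and 0.783 FPKM at 10 °C, against 0.528 and 0.276 FPKM at 30 °C, with overlap.

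In bat iBAT limma again called none of the 4, with 1 unadjusted p under 0.05, that of Mx1, beside a call rate over all genes of 2.2%, with 0.98% lower, or 0.509% lower and 1.34% higher with median-ratio scaling. Mx1 had 10.8 and 11.9 FPKM at 10 °C, against 13.2 and 22.5 FPKM at 30 °C (−0.47 ± 0.25, adjusted p = 0.242). Irf7 had 0.425 and 0.490 FPKM at 10 °C, against 0.649 and 0.644 FPKM at 30 °C (−0.08 ± 0.24, adjusted p = 0.725). These genes lay lower in the cold without overlap, as did 33.1% of all genes. Parp14 had 2.27 and 1.22 FPKM at 10 °C, against 2.59 and 1.97 FPKM at 30 °C (−0.17 ± 0.29, adjusted p = 0.640). Isg15 had 0.538 and 0.705 FPKM at 10 °C, against 0.639 and 0.679 FPKM at 30 °C (0.07 ± 0.21, adjusted p = 0.954). Both overlapped. Usp18 stood at 0.501 and 1.81 FPKM at 10 °C, against 0.160 and 0.425 FPKM at 30 °C, higher in both cold libraries as were 20.1% of all genes tested, and with no filter on low values it was not called (0.71 ± 0.28, adjusted p = 0.271).

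Among bat depots, the test of a difference in the cold response called Isg15 alone of the 4 genes tested. Isg15 had a moderated F of 17.7 (adjusted p = 0.0352), beside 2.2% of all genes called. Its change was 0.43 in sWAT, −1.08 in aWAT and 0.07 in iBAT. For Irf7, with changes of 0.61, −0.51 and −0.08 in the same order, the adjusted p was 0.131, with an unadjusted p of 0.00878 in that F-test. For Mx1 and Parp14 the adjusted p was 0.346 and 0.405. A missing call does not show that these responses were alike. The call of Isg15 was lost with median-ratio scaling (F = 15.0, adjusted p = 0.0578), with quantile normalization (F = 11.7, adjusted p = 0.0766) and with a pseudocount of 0.1 (F = 15.7, adjusted p = 0.0515). It was also lost without any 1 bat library other than the female warm or the male cold aWAT library.

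Between bat depots at 30 °C, Isg15 (1.20 ± 0.21, adjusted p = 0.00220), Parp14 (0.89 ± 0.29, adjusted p = 0.0326) and Mx1 (0.87 ± 0.25, adjusted p = 0.0171) were higher in aWAT than in iBAT. Of all genes 20.2% were called, 12.6% higher and 7.66% lower, and with median-ratio scaling 8.92% and 9.71%, under which all 3 calls held. Without the female warm aWAT library only Isg15 was called, and likewise without the female warm iBAT library. Mx1 was not called without the male warm aWAT library (adjusted p = 0.0528), nor Parp14 without the male warm iBAT library (adjusted p = 0.158). In sWAT over iBAT only Mx1 was called (0.88 ± 0.25, adjusted p = 0.0197), beside 24% of all genes called and 13% higher, and not without the female warm iBAT library (0.50, adjusted p = 0.143) or the male warm sWAT library (0.71, adjusted p = 0.105). Between aWAT and sWAT limma called none of the 4, with 1 unadjusted p under 0.05, that of Isg15 (0.72 ± 0.21, adjusted p = 0.187), and 0.889% of all genes.

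By group mean the order of Isg15 in the bat was aWAT at 30 °C, sWAT at 10 °C, sWAT at 30 °C, aWAT at 10 °C, iBAT at 30 °C and iBAT at 10 °C, and only the iBAT groups overlapped among neighbours. Mx1 and Parp14 both ran from aWAT at 30 °C through sWAT at 30 °C and sWAT at 10 °C to iBAT at 10 °C, the lowest. For both, warm aWAT and warm sWAT overlapped. Irf7 was highest in sWAT at 10 °C, with 1.67 ± 0.22 FPKM (SD, n = 2), and lowest in aWAT at 10 °C, with 0.375 ± 0.274 FPKM. The groups of Usp18 overlapped at every step of their order.

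Leukocyte markers of the bat are given beside these values. In aWAT the 6 general leukocyte markers summed to 30.1 and 46.6 FPKM at 10 °C, against 125 and 57.0 FPKM at 30 °C. Of these 6 markers 2 were called lower, beside 6.67% of all genes. The macrophage markers summed to 171 and 313 FPKM at 10 °C, against 487 and 292 FPKM at 30 °C, with overlap and with none of 10 called by limma (3 with an unadjusted p under 0.05). The brown fat markers summed to 9767 and 5524 FPKM in aWAT at 10 °C, against 451 and 1033 FPKM at 30 °C. In sWAT the general leukocyte markers summed to 93.0 and 113 FPKM at 10 °C, against 61.5 and 51.5 FPKM at 30 °C. The skeletal muscle markers in sWAT summed to 84.5 and 180 FPKM at 10 °C, against 5.36 and 0.644 FPKM at 30 °C, and in aWAT and iBAT they were at most 1.54 FPKM. The part of these cell types in the levels of the 5 genes was not tested. The T lymphocyte marker Lck was under 0.1 FPKM in both libraries of every bat group, which is not read as absence, since bat reads were assigned to mouse genes by a step that is not described.

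The rest of the interferon pathway was read from lists of 146 genes by role, of which 96 are in the table. In mouse sWAT 46 of the 91 tested were lower in the cold and 2 higher, with a median of −0.55. Of all genes 33.9% were called, 26.8% lower and 7.06% higher, or 6.55% and 11.4% with median-ratio scaling. With median-ratio scaling 14 were lower and 4 higher, and without the female warm sWAT library none of 90 was called. Without the male warm sWAT library 23 were called, without the male cold one 18, without the female cold one 57, and without any 1 iBAT library 15 or 16. Shares of all genes are not given for fits without 1 library, here or below, so these counts are not set against them. Of the ligands only Ifnb1 and Ifne are in the table, and neither passed the filter in either species.

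Among receptor and signalling genes of mouse sWAT, 8 of 12 were lower and none higher, beside 26.8% of all genes called lower. Jak2, a kinase of the interferon gamma receptor, had 7.01 and 4.06 FPKM at 10 °C, against 17.1 and 13.7 FPKM at 30 °C (−0.99 ± 0.25, adjusted p = 0.0177). Jak1 fell by a similar amount (−0.92 ± 0.24), as did Pias1, a SUMO ligase (−0.76 ± 0.22). Of 13 sensors and adaptors 6 were lower. Tmem173, which encodes the DNA-sensing adaptor STING, had 14.0 and 3.87 FPKM at 10 °C, against 33.2 and 28.3 FPKM at 30 °C (−1.52 ± 0.47, adjusted p = 0.0287). Ikbke, a kinase that activates interferon regulatory factors (−1.88 ± 0.58), and the DNA receptor Tlr9 (−1.26 ± 0.40) fell with it. Of 6 interferon regulatory factors 2 were lower, Irf1 (−0.87 ± 0.28) and Irf2 (−0.54 ± 0.24), a count near the share of all genes.

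The enzymes that attach ISG15 were lower in cold mouse sWAT in 3 of 4 cases, beside 26.8% of all genes called lower. Uba7, the activating enzyme, had 9.43 and 3.73 FPKM at 10 °C, against 27.0 and 13.3 FPKM at 30 °C (−1.14 ± 0.45, adjusted p = 0.0439). Trim25 (−0.74 ± 0.26) and Herc6, the main ISG15 ligase of the mouse (−0.53 ± 0.23), were also lower. Of 12 relatives of Parp14, 7 were lower, led by Parp8 (−1.21 ± 0.38), the antiviral Zc3hav1 (−0.93 ± 0.28) and Parp11 (−0.88 ± 0.32). Of 5 interferon-induced GTPases 2 were lower, Tgtp2 (−1.47 ± 0.33) and Gbp9 (−1.37 ± 0.26), and Tgtp2 has a close copy, Tgtp1, so that its reads may be shared.

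Of all genes tested in mouse sWAT 26.8% were called lower and 7.06% higher. Near that lower share, 7 of 21 other antiviral effectors were lower, such as the nuclear body protein Sp100 (−1.52 ± 0.35) and the RNA editor Adar (−1.11 ± 0.29), and 1 was higher. This was Ifi27, an interferon-induced mitochondrial and nuclear membrane protein, with 267 and 408 FPKM at 10 °C, against 66.7 and 102 FPKM at 30 °C (2.35 ± 0.29, adjusted p = 0.0120). Of 18 antigen presentation genes and targets of interferon gamma, 11 were lower and 1 higher. The class II gene H2-Aa had 278 and 112 FPKM at 10 °C, against 837 and 797 FPKM at 30 °C (−1.84 ± 0.43), and Ciita, the activator of class II genes, fell too (−1.80 ± 0.50). The class II gene H2-Eb1 was the exception, with 142 and 52.6 FPKM at 10 °C, against 32.0 and 29.1 FPKM at 30 °C (1.84 ± 0.41, adjusted p = 0.0369). Class I and class II genes have close copies and differ between outbred animals, so their reads are uncertain. Leukocytes carry many of these genes, and their markers in mouse sWAT are given above. The part of leukocytes in the levels of these pathway genes was not tested.

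**Figure D5:**
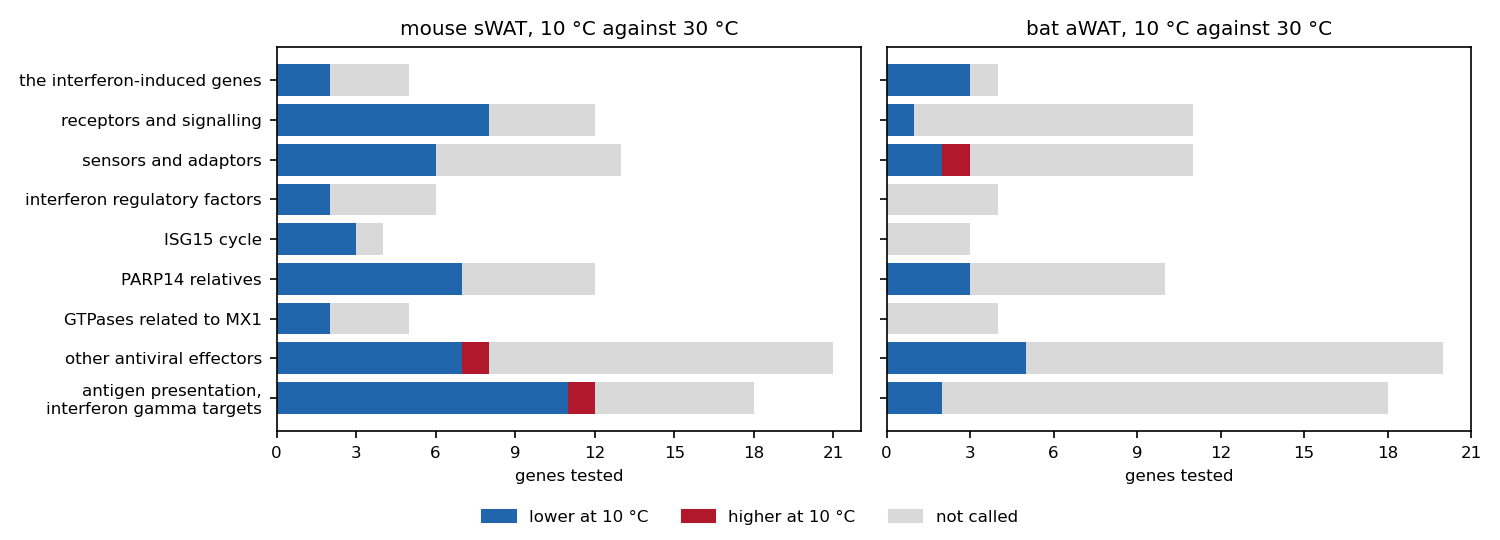
Number of genes tested in each list of the interferon pathway (bars, x axis), split into called lower at 10 °C, called higher at 10 °C and not called, in mouse sWAT and in bat aWAT. In mouse sWAT the lower calls reach 8 of 12 receptor and signalling genes and 11 of 18 antigen presentation genes, beside 26.8% of all genes. In bat aWAT they reach 3 of 4 tested interferon-induced genes and 3 of 10 relatives of Parp14, beside 6.67% of all genes.

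In mouse iBAT 9 of the 91 pathway genes were lower and 2 higher, with a median of −0.17, beside 14.1% of all genes called, 11.2% lower and 2.84% higher, so that the count was not above the rate of all genes. With median-ratio scaling 3 were lower and 3 higher, beside 3.63% and 6.62% of all genes. With quantile normalization 1 was lower and 2 higher, beside 2.05% and 3.28%. The interferon gamma receptor gene Ifngr1 had 23.9 and 19.3 FPKM at 10 °C, against 52.0 and 64.8 FPKM at 30 °C (−1.10 ± 0.20, adjusted p = 0.0129). Irf1 (−0.82 ± 0.28) and H2-Aa (−1.66 ± 0.43) were lower as in sWAT, and so were the GTPase gene Gbp2 (−0.53 ± 0.16), Nmi (−0.67 ± 0.20), Parp6 (−0.56 ± 0.15) and Parp16 (−0.45 ± 0.18). The class I gene H2-K1 was higher, with 359 and 328 FPKM at 10 °C, against 160 and 182 FPKM at 30 °C (1.30 ± 0.20, adjusted p = 0.0268), as was Tapbpl, a loading factor of class I molecules (1.23 ± 0.21). Leaving out any 1 of the 4 iBAT libraries left no call among the pathway genes, and leaving out either cold sWAT library gave 28.

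In bat aWAT 13 of the 81 pathway genes tested were lower and 1 higher, with a median of −0.40. Of all genes 15.3% were called, 6.67% lower and 8.66% higher. Of 10 relatives of Parp14 there were 3 lower, Parp9 (−0.94 ± 0.27), Parp10 (−0.78 ± 0.19) and Parp2 (−0.60 ± 0.21). Parp9, which works with a ubiquitin ligase in the interferon response, had 4.57 and 5.28 FPKM at 10 °C, against 15.0 and 8.76 FPKM at 30 °C (adjusted p = 0.0266). Lgals3bp (−1.94 ± 0.44), Rtp4 (−1.33 ± 0.31) and Sp100 (−0.96 ± 0.23) were among 5 of 20 other antiviral effectors that were lower. The nucleic acid sensors Cgas (−0.93 ± 0.28) and Ddx58, which encodes RIG-I (−0.66 ± 0.17), were lower too. The remaining lower genes were Jak1 (−0.50 ± 0.18), the immunoproteasome subunit gene Psmb10 (−0.87 ± 0.21) and H2-Eb1 (−1.66 ± 0.44). Mavs, the mitochondrial adaptor of RIG-I, was the one gene that rose, with 24.98 and 25.25 FPKM at 10 °C, against 9.46 and 14.1 FPKM at 30 °C (1.19 ± 0.25, adjusted p = 0.0191). None of the 3 ISG15 cycle genes was called by limma, and none had an unadjusted p under 0.05. Without the female warm aWAT library 1 of 76 pathway genes was called, without the female cold one 2 of 81, and without the male warm one 25 of 80.

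In bat sWAT limma called none of 81 pathway genes (8 had an unadjusted p under 0.05), beside 1.02% of all genes. In bat iBAT, beside 2.2% of all genes, limma called 1 pathway gene, Ddx58. It had 1.82 and 2.08 FPKM at 10 °C, against 4.51 and 3.76 FPKM at 30 °C (−0.70 ± 0.17, adjusted p = 0.0481). That count in bat iBAT changed when 1 library was left out. The limma tests of a difference between depots in the cold response called none of 91 pathway genes in mouse (17 had an unadjusted p under 0.05). They called none of 81 in bat (13 had one). Of all genes 0.0936% were called in mouse and 2.2% in bat. In mouse, 19 were called without the female cold sWAT library, and in bat 8 without the male warm aWAT library. Between depots at 30 °C, 74 of 91 pathway genes were higher in mouse sWAT than in iBAT and 4 were lower, with a median of 1.01, beside 48% of all genes higher and 10.7% lower. In the bat 22 of 81 were higher in aWAT than in iBAT and none lower, beside 12.6% of all genes higher and 7.66% lower. In bat sWAT over iBAT 11 of 81 were higher, near the 13% of all genes that were higher, and 2 were lower, beside 11% of all genes lower.

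The genes whose pattern was most like each of the 5 were found by the mean absolute difference of centred log2(FPKM + 1) values, over 8 libraries in mouse and 12 in bat. In mouse the nearest to Usp18 was Mmgt2 (0.0754), to Parp14 Rbm43 (0.0816), to Irf7 Phf11b (0.150), to Isg15 Rtp4 (0.160) and to Mx1 Ogfrl1 (0.0802). The next nearest were Inpp5d and Stmn1 for Usp18, Srgn and Lrrfip1 for Parp14, Gzma and Sdf2l1 for Irf7, Lxn and Cyb561 for Isg15, and Lpcat2 and Wdr90 for Mx1. Among the 5 genes Parp14 stood closest to Usp18, at rank 11 of all genes (0.156), and Mx1 farthest, at rank 787 (0.346). In the bat the nearest to Parp14 was Parp9 (0.0833), to Irf7 Dock2 (0.110), to Isg15 Fyn (0.167) and to Mx1 Rasl11a (0.133). Next came Casp1 and Mutyh for Parp14, Pilrb1 and Arsk for Irf7, Lrp11 and Ptpn18 for Isg15, and Gpsm1 and Ablim3 for Mx1. Libraries within a group and depots of a temperature share much of their variation, so these are descriptions with no test.

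In the mouse genome (GRCm38, GENCODE M21) Usp18 lies on chromosome 6, plus strand, from 121245906 to 121270917, and Isg15 on chromosome 4, minus strand, from 156199424 to 156200818. Parp14 and Mx1 share chromosome 16, both on the minus strand, at 35832874 to 35871544 and at 97447035 to 97462907. Irf7 lies on chromosome 7, minus strand, from 141262706 to 141266481, and overlaps Phrf1 on the other strand, which is in the table as well. Whether counting used the strand is not given, so reads of this pair may not be told apart.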

How the data were processed

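RNA sequencing of fat was analysed from 8 mouse and 12 bat libraries. The values are FPKM as deposited by the authors for 14871 mouse gene identifiers, of which 14723 were given a symbol. CASAVA 1.8 is named in the submitters' processing notes, and the sources used here give no aligner, no genome build and no account of how bat reads reached mouse genes. With no counts, no counting intervals were computed.

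From these, log2(FPKM + 1) was taken for genes that reached 1 FPKM in 2 or more libraries per species, and limma 3.58.1 (R 4.3.3; trended eBayes) was fitted per species with 1 coefficient per depot and temperature, two-sided, with Benjamini-Hochberg adjustment over all genes tested. So the spread of each pair comes from all libraries of the species. Changes are printed less the median of all genes, while p-values are those without this shift. The fit was checked on simulated data. Sex was tried as a block, but same-sex cold and warm libraries deviated together in mouse sWAT (correlation 0.47) and not in mouse iBAT (−0.002). The genes and lists were chosen with earlier results of these data known. From each list at most 3 called genes per cold comparison are named, those of the largest change among genes averaging 2 FPKM or more in either temperature group and moving alike in both sexes. For each of the 5 genes the 3 of nearest pattern were taken.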

Additional observations from a re-analysis of the deposited data

Results flagged for a closer look

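The cold response of Isg15 differed among the 3 bat depots in the test of that difference (moderated F of 17.7, adjusted p = 0.0352). It had 2.38 and 2.48 FPKM in sWAT at 10 °C, against 1.44 and 1.40 FPKM at 30 °C, and 0.717 and 0.937 FPKM in aWAT at 10 °C, against 2.53 and 4.05 FPKM at 30 °C. In iBAT it had 0.538 and 0.705 FPKM at 10 °C, against 0.639 and 0.679 FPKM at 30 °C. The call was lost in 10 of the 12 fits that left out 1 bat library.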

How the results depend on the processing

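The number of the 5 genes called in cold mouse sWAT, 2 in the report, was 1 with median-ratio scaling, quantile normalization, a pseudocount of 0.1 or no filter, and 0 with only the groups compared in the fit, which leaves limma few libraries for the spread. That last setting gave 2 in cold mouse iBAT, 0 for bat sWAT over iBAT and 1 for bat aWAT over iBAT. For mouse sWAT over iBAT, quantile normalization gave 3 at 30 °C and 0 at 10 °C, and a pseudocount of 0.1 gave 4 at 10 °C. The test of a difference among bat depots called 0 with both scalings and with that pseudocount. In cold bat aWAT Parp14 was not called with median-ratio scaling, that pseudocount, no filter or only the groups compared. Of the pathway genes, median-ratio scaling called 18 in mouse sWAT, 6 in mouse iBAT and 0 in bat iBAT. Quantile normalization called 3 in mouse iBAT and 0 in bat iBAT, a pseudocount of 0.1 called 21 and 2, and no filter 6 and 0. The cause of these shifts was not tested. Shares of all genes are not given for the pseudocount of 0.1, no filter, or only the groups compared. Nor are they given for fits without 1 library, so counts from these fits may follow the call rate of all genes.

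Leaving out 1 library at a time gave 0 to 4 of the 5 genes in cold mouse sWAT and 1 to 3 in bat aWAT, and for pathway genes 0 to 57 in mouse sWAT, 0 to 28 in mouse iBAT, 1 to 25 in bat aWAT and 0 to 2 in bat iBAT. The difference between depots called 0 to 19 pathway genes in mouse, and in bat 0 to 8, with 0 to 1 of the 4 genes. For depots the counts were 3 to 5 in mouse at 30 °C, 0 to 4 at 10 °C, 0 to 1 for bat sWAT over iBAT and 1 to 3 for bat aWAT over iBAT.

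Directions turned only for changes that were not called. Isg15 in mouse sWAT was 0.022 with a pseudocount of 0.1, and ran from −0.97 to 0.88 over libraries left out. In mouse iBAT, Isg15 was 0.032 with quantile normalization (−0.21 to 0.068 over libraries left out), Usp18 ran from −0.34 to 0.053, and Mx1 was −0.21 with median-ratio scaling, −0.090 with quantile normalization, −0.52 with a pseudocount of 0.1 and −0.088 with no filter (−0.19 to 0.24). The difference between mouse depots was −0.032 with quantile normalization and −0.0049 with no filter for Isg15 (−0.93 to 0.93), and ran from −1.23 to 0.0091 for Irf7. Mx1 in mouse sWAT over iBAT at 10 °C ran from −0.021 to 0.56. In bat iBAT, Parp14 ran from −0.47 to 0.11 and Isg15 from −0.0026 to 0.13. Irf7 in bat aWAT over iBAT ran from −0.046 to 0.51. In bat aWAT over sWAT, Mx1 was 0.062 with quantile normalization and 0.018 with no filter (−0.18 to 0.15), Parp14 ran from −0.069 to 0.67 and Irf7 from −0.0087 to 0.57.

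As a replicate block, sex made Irf7 a call in mouse sWAT (adjusted p = 0.0292), and it called 25 pathway genes in mouse iBAT, 1 in bat sWAT and 4 of the 5 genes in mouse sWAT over iBAT at 10 °C. The library code in the titles, as a block, called 4 there as well, adding Usp18 (adjusted p = 0.0256) and Isg15 (adjusted p = 0.0427). Each code goes with 1 species, temperature and sex. Libraries of the same code deviated together across depots at 1 temperature (correlation 0.41 and 0.37 in mouse, 0.26 to 0.55 in bat). A shared difference between the sexes and a pairing of animals, which no label states, cannot be told apart here. Same-sex libraries at 10 °C and 30 °C did not deviate together in every depot (correlation 0.47 in mouse sWAT and −0.002 in mouse iBAT), so sex was not taken as a pairing. With 2 libraries per group the spread is known poorly, and at levels near or under 1 FPKM, as for Usp18 and Irf7 in the bat, small changes were not detectable.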
